A study of Mus musculus with 3 samples.

Results

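The E protein and Id factors measured here are 4 mouse genes, Id2, Id3, Tcf3 and Tcf12, chosen by symbol from the 30406 gene identifiers that the count tables of all 3 libraries share. Each was matched to a single identifier in every library. Single-cell RNA sequencing (scRNA-seq) was performed on thymic invariant natural killer T (iNKT) cells that were left after CD8+ cell depletion and were sorted for TCRβ and CD1d tetramer binding without CD24 or NK1.1. The C57BL/6 library came from untreated C57BL/6 mice of 7 weeks by the labels. The BM only and BM + Spl libraries came from F1 hosts (C57BL/6 x BALB/c) that were given a lethal dose of irradiation and T cell-depleted C57BL/6 bone marrow, and both were taken at 16 weeks of age, 9 weeks after bone marrow transplantation (BMT). The BM + Spl hosts were also given C57BL/6 splenic cells, which cause graft-versus-host disease (GvHD). Thymi of several mice were pooled into 1 library per condition, so no difference below has a replicate check and no p-value was computed. All intervals are 95% intervals that cover counting error only.

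E proteins are basic helix-loop-helix transcription factors that pair with each other and bind E-box DNA through their basic region. Tcf3 encodes E12 and E47 by alternative splicing, Tcf12 encodes HEB, and the remaining mammalian E protein gene is Tcf4, which encodes E2-2. Id proteins have the helix-loop-helix but lack the basic region, so that a heterodimer of an Id and an E protein does not bind DNA. Id3 is induced downstream of the T cell receptor through Egr factors, and Id2 and Id3 both act in the development of innate-like T cells, where PLZF (Zbtb16) and T-bet (Tbx21) mark the NKT2 and NKT1 fates.

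In the GRCm38/mm10 annotation, Id2 lies at chr12:25093799-25097140 on the minus strand, Id3 at chr4:136143497-136145755 on the plus strand, Tcf3 at chr10:80409514-80433647 on the minus strand and Tcf12 at chr9:71842688-72111871 on the minus strand. A single UMI count per gene pools all its transcripts, 3 annotated for Id2, 3 for Id3, 14 for Tcf3 and 21 for Tcf12, so E12 and E47 could not be told apart. Since both pairs are paralogs, the most alike coding stretch of 90 bases within single exons is shown for each pair. Reads were not examined, so whether any were split between paralogs was not tested. Capitals mark bases that are identical within the pair, and each line reads 5′ to 3′ on the coding strand.
Id2: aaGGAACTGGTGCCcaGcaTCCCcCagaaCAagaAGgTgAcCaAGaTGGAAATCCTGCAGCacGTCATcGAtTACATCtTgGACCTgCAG
Id3: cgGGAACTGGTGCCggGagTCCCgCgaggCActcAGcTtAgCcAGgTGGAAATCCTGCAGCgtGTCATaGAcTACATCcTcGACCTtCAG
Tcf3: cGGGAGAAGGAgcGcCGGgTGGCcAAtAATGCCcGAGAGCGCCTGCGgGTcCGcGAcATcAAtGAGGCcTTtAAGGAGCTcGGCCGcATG
Tcf12: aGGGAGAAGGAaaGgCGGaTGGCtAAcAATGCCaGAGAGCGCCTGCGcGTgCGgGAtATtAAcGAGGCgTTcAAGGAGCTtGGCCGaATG
The Id stretches lie in exon 1 of Id2 (chr12:25095783-25095872) and exon 1 of Id3 (chr4:136144032-136144121), and 64 of their 90 bases were identical. The E protein stretches lie in exon 18 of the Tcf3-201 transcript (chr10:80412924-80413013) and exon 18 of the Tcf12-201 transcript (chr9:71856402-71856491), and 72 of 90 were identical. Each stretch is shown for a single transcript, and whether other transcripts of its gene carry it is not given. Of the 18 differences between Tcf3 and Tcf12, 14 fell on the third base of a codon. Over all annotated transcripts, the longest run shared by Id2 and Id3 was 19 bases and that shared by Tcf3 and Tcf12 was 18 bases.

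The files held 16172 cells, of which 15961 passed the study's filter of more than 200 genes, fewer than 6000 genes and less than 10% mitochondrial UMIs. Median UMIs per passing cell were 12086.5 in C57BL/6, 4740 in BM only and 6495 in BM + Spl. Passing cells were therefore thinned to 2700 UMIs and assigned to subsets by the number of markers detected, and 14419 cells had the depth for it. Levels are given as UMIs per 1000000 (CPM) of the summed raw UMIs of a subset. BM only and BM + Spl shared 43 cell barcodes, and leaving them out moved no ratio of a member past the cutoff used below. The C57BL/6 counts came from an earlier Cell Ranger version and gene reference, and held 0.0450 Vβ UMIs per thinned cell against 4.06 and 4.96 in the BMT libraries. Median mitochondrial UMIs per passing cell were 6.48% in C57BL/6, 0.687% in BM only and 0.511% in BM + Spl. Library type, age, host strain and BMT cannot be told apart as sources of differences between C57BL/6 and the other libraries, so the members were compared within libraries and between BM only and BM + Spl.

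The 6 iNKT gates held 3323 cells in C57BL/6, 3536 in BM only and 2415 in BM + Spl. The NKT2-like gate had 1363, 522 and 913 cells in that order, and the NKT1-like gate had 898, 2018 and 573. Summed over 14 NKT1 markers, NKT1-like cells were at 5652, 9273 and 4869 CPM and NKT2-like cells at 201, 249 and 256 CPM. The same markers set the gates, so this difference was built in and is no check of the gate names. The label of the NKT1-like and NKT17-like gates held less well in BM + Spl. Among cells with an assigned Vβ segment, the segments typical of iNKT cells made up 92.6% in NKT1-like and 68.9% in NKT17-like cells of BM only, but 37.7% (33.4 to 42.1) and 35.9% (29.2 to 43.1) in those of BM + Spl. In NKT2-like cells the same share was 95.1% and 94.3%, and in cycling-like cells 86.9% and 86.4%. It was lower in BM + Spl also in precursor-like cells, at 92.3% and 73.4%, and in cells with markers of both NKT1 and NKT2, at 92.6% and 83.8%. Cd4, the coreceptor gene, was at 256 CPM in NKT1-like cells of BM + Spl and at 28.9 CPM in those of BM only. For Id2 and Id3, the comparison of BM + Spl with BM only in the NKT1-like and NKT17-like gates is also given below by kind of Vβ segment. Most other results that rest on these gates, those of the partner, target and Egr genes included, pool cells of both kinds.

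Id3, the inhibitor most closely tied to T cell receptor signaling, separated the subsets more widely than any other member. NKT2-like cells of C57BL/6 held 508 CPM (498 to 518), and NKT1-like cells 65.8 CPM (59.6 to 72.6). In BM only the corresponding levels were 501 (480 to 522) and 60.8 (56.1 to 65.9), and in BM + Spl they were 473 (458 to 487) and 59.2 (51.0 to 68.4). The intervals of both gates were far apart in each of the 3 libraries. Differences between libraries within a gate were small beside this, although the NKT2-like intervals of C57BL/6 and BM + Spl did not overlap. The NKT1-like levels pool cells with different Vβ segments. Those with an iNKT segment held Id3 at 56.7 CPM for BM only and 78.5 CPM for BM + Spl. Those with another segment held 52.7 and 46.2 CPM. Over all cells of each gate, the log2 ratio of NKT1-like over NKT2-like was -2.95 (-3.10 to -2.81) in C57BL/6, -3.04 (-3.17 to -2.91) in BM only and -3.0 (-3.22 to -2.78) in BM + Spl.

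The remaining gates fell on either side of this divide. Precursor-like cells, gated on genes such as Cd24a, Sox4 and Ccr7, held Id3 at 609.5, 476 and 614 CPM in C57BL/6, BM only and BM + Spl. Cycling-like cells were at 437, 449 and 515 CPM. Both gates pool cells with different Vβ segments. Precursor-like cells of BM + Spl held Id3 at 736 CPM with an iNKT segment and 177 CPM with another. Cycling-like cells held 520 and 107 CPM in BM only, and 568 and 252 CPM in BM + Spl. NKT17-like cells held 169, 80.1 and 51.9 CPM, and cells with markers of both NKT1 and NKT2 held 167, 102 and 229 CPM. Within BM only, the interval of precursor-like cells overlapped those of NKT2-like and cycling-like cells. In BM + Spl, NKT17-like and NKT1-like cells had overlapping intervals, and in C57BL/6 so did NKT17-like and double-marker cells.

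**Figure D1:**
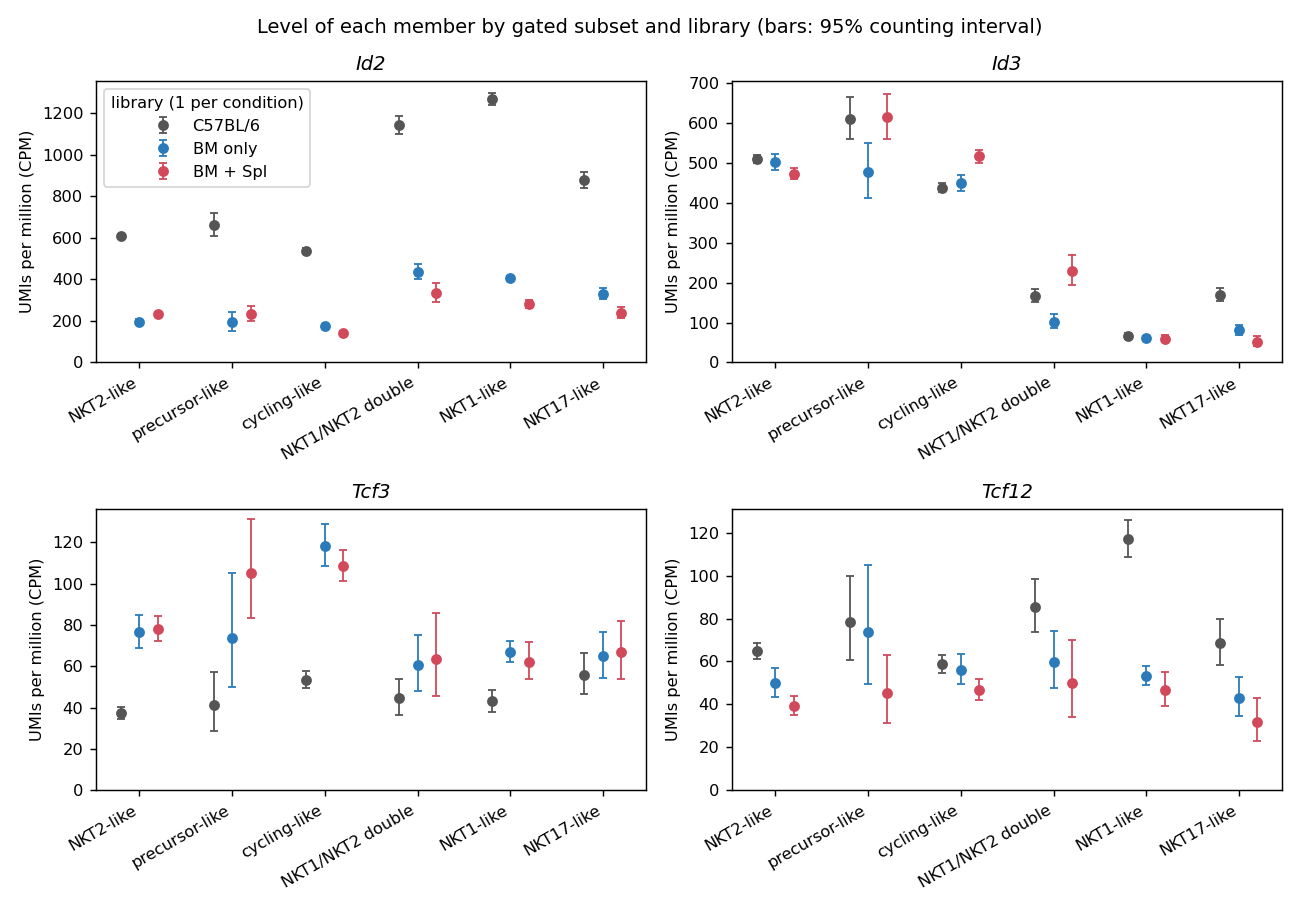
Levels of Id2, Id3, Tcf3 and Tcf12 in UMIs per 1000000 (CPM) (y axis) in the 6 iNKT gates (x axis) of each library, with points for the pooled cells of a gate and bars for the 95% counting interval. Id3 lies from 473 to 508 CPM in pooled NKT2-like cells and from 59.2 to 65.8 CPM in pooled NKT1-like cells of the 3 libraries. Id2 is higher in every gate of C57BL/6 than in the BMT libraries.

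Id2, which encodes the Id protein associated with innate lymphoid and effector T cell fates, ran the opposite way on the CPM scale. NKT1-like cells of C57BL/6 held 1269 CPM (1241 to 1298) and NKT2-like cells 609.8 CPM (599 to 621). In BM only the levels were 406 (393 to 419) and 197 (184 to 210), and in BM + Spl they were 280.1 (262 to 299) and 232 (222 to 242). Pooled NKT1-like cells were higher in all 3 libraries, with a small step in BM + Spl. Among BM + Spl cells with an iNKT Vβ segment, NKT1-like cells held 265 CPM (234 to 298) and NKT2-like cells 234 CPM (223 to 246). Those intervals overlapped. In BM only such cells held 409 and 199 CPM. Over all cells of each gate, the log2 ratio was 1.06 (1.02 to 1.10) in C57BL/6, 1.05 (0.94 to 1.15) in BM only and 0.27 (0.16 to 0.39) in BM + Spl. The step in BM + Spl was 0.49 when cells were gated at 1500 UMIs and 0.024 with graph clusters. Cycling-like cells had the lowest Id2 level of the 6 gates in every library, at 537, 174 and 142 CPM. NKT17-like cells were at 879, 332 and 238 CPM. In C57BL/6 the intervals of NKT2-like and precursor-like cells overlapped and all other neighbours in the order were apart. In BM + Spl each gate above cycling-like cells overlapped its neighbour in the order, NKT17-like cells (213 to 266) with NKT1-like cells included.

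The direction of the Id2 difference depended on the scale, because NKT1-like cells held fewer UMIs in all. Median UMIs were 6266 in NKT1-like and 13483 in NKT2-like cells of C57BL/6, 4546 and 8185 in BM only, and 4525 and 8942 in BM + Spl. Counted per cell, Id2 was at 8.69 UMIs (8.50 to 8.89) in NKT1-like and 8.83 UMIs (8.67 to 8.99) in NKT2-like cells of C57BL/6. In BM only the means were 2.0 and 1.71 UMIs per cell, and in BM + Spl 1.53 and 2.16. The log2 ratio per cell was thus -0.022, 0.22 and -0.50. Higher Id2 in pooled NKT1-like cells held for its share of the RNA in all 3 libraries but per cell only in BM only. Id3 was lower on both scales, with mean UMIs per cell of 0.451 against 7.36 in C57BL/6, 0.299 against 4.36 in BM only and 0.323 against 4.42 in BM + Spl.

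Counting the members together, 3 of 4 lay past 1.5-fold between NKT1-like and NKT2-like cells on the CPM scale in C57BL/6, where 28.4% of the 10035 genes with at least 50 UMIs over both gates together did. In BM only 2 of 4 did, against 31% of 9605 genes, and in BM + Spl 1 of 4 did, against 31.3% of 9287 genes. Id3 was the member past the cutoff in all 3 libraries, Id2 in C57BL/6 and BM only, and Tcf12 in C57BL/6 alone.

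**Figure D2:**
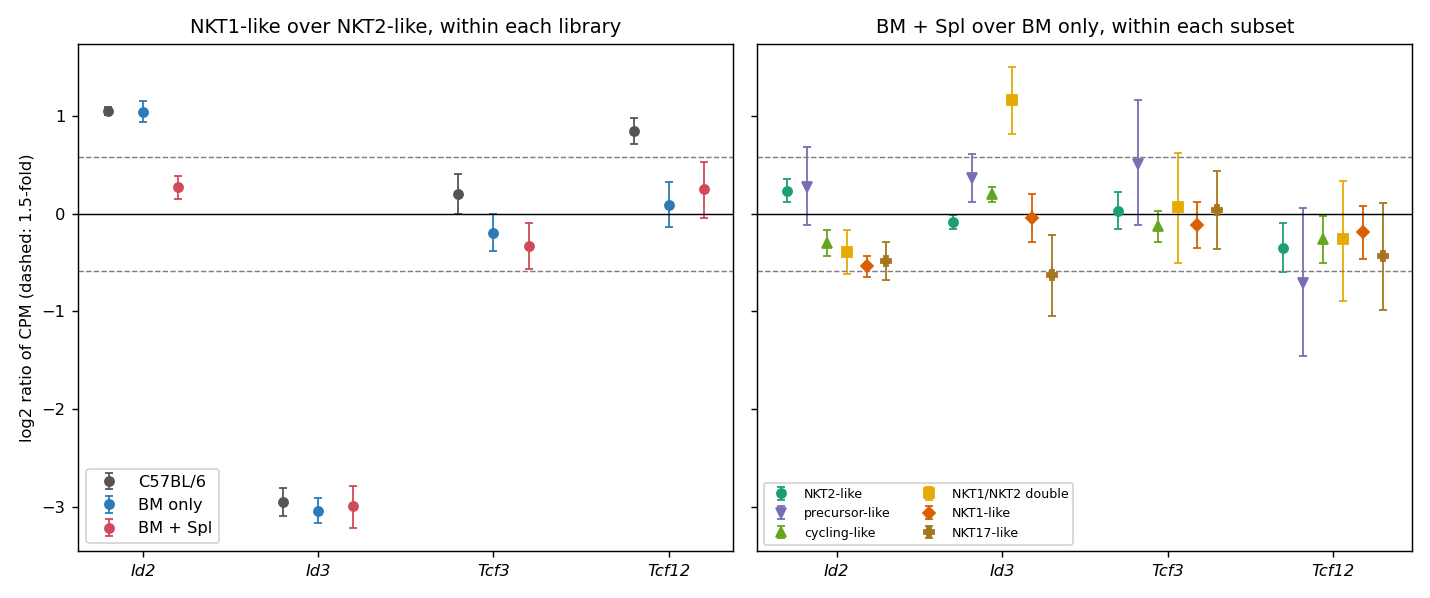
Log2 ratios of CPM (y axis) for each member (x axis), with bars for the 95% counting interval and dashed lines at 1.5-fold, for NKT1-like over NKT2-like cells within each library and for BM + Spl over BM only within each gate. Id3 lies near -3 in the first comparison in all 3 libraries, and in the second most members lie inside 1.5-fold.

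The Id3 share of all Id2 and Id3 UMIs does not depend on the total UMIs of a cell. It was 45.5% in NKT2-like and 4.93% in NKT1-like cells of C57BL/6, 71.8% and 13.0% in BM only, and 67.1% and 17.5% in BM + Spl. NKT1-like cells had the lower share in each library. Double-marker cells lay between them at 12.7%, 19.0% and 40.8%. NKT17-like cells were at 16.2%, 19.4% and 17.9%, near the NKT1-like end in the BMT libraries when cells of both kinds of Vβ segment were pooled. NKT17-like cells of BM + Spl with an iNKT segment had 57 Id3 and 113 Id2 UMIs, and those with another segment 4 and 150. Precursor-like cells, at 47.9%, 71.1% and 72.3%, and cycling-like cells, at 44.9%, 72.1% and 78.4%, were on the NKT2-like end.

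To see whether the change was stepwise, cells were also ordered by how many of the 14 NKT1 markers they showed. Only NKT2-like, NKT1-like and double-marker cells and cells assigned to no gate were used. In C57BL/6, Id3 was at 516 CPM with 0 markers, 250.3 with 2, 145 with 3 and 41.2 with 8 or more. In BM only the series ran 480.1, 298, 149 and 55.6 CPM, and in BM + Spl 461, 182, 126 and 29.4 CPM. Id3 was lower at each further step in every library. Id2 in C57BL/6 went from 599.5 CPM with 0 markers to 1323 CPM with 4 or 5 and was 1262 CPM with 8 or more. In BM only it was at 194 CPM with 0 markers, 162 with 2, 324 with 3, 396 with 4 or 5, 425 with 6 or 7 and 416 with 8 or more. In BM + Spl it was at 220.4, 212, 272, 257, 349 and 421 CPM at the same steps. Median UMIs per cell moved with the marker number, from 13890 with 0 markers to 6133.5 with 8 or more in C57BL/6, and their part in the Id2 trend was not tested.

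**Figure D3:**
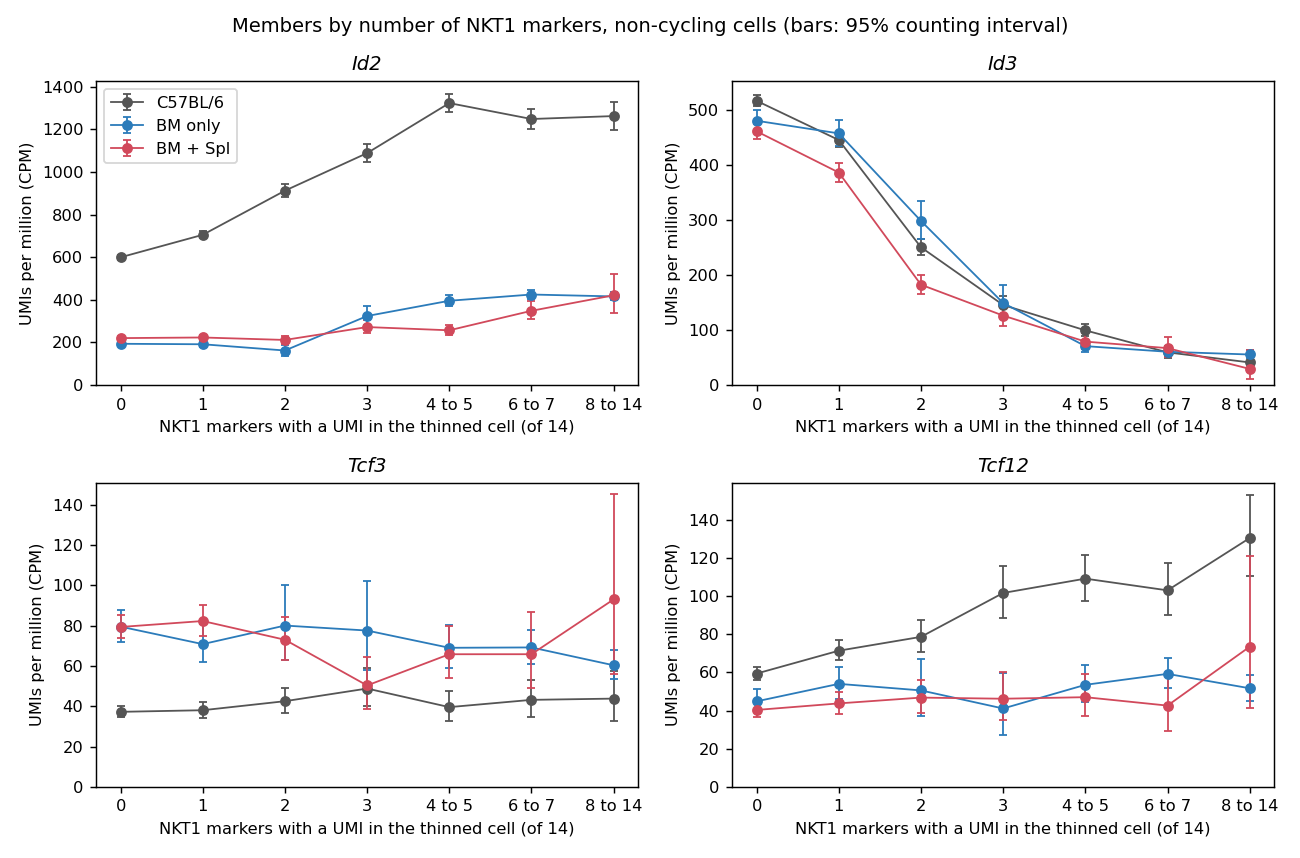
Levels in UMIs per 1000000 (CPM) (y axis) of each member in cells grouped by the number of NKT1 markers with a UMI (x axis, of 14). The non-cycling cells used are NKT2-like, NKT1-like and double-marker cells and cells assigned to no gate. Each library has 1 line, with bars for the 95% counting interval. Id3 goes from 516, 480.1 and 461 CPM with 0 markers to 41.2, 55.6 and 29.4 CPM with 8 or more, whereas Tcf3 stays between 37.2 and 93.1 CPM.

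Single cells were then scored for both Id genes at the same depth of 2700 UMIs. UMIs of both Id2 and Id3 were found in 40.1% (37.5 to 42.8) of NKT2-like cells of C57BL/6, 21.3% of those of BM only and 20.4% of those of BM + Spl. In NKT1-like cells the shares were 11.5%, 7.14% and 6.11%. With all UMIs, the shares were 81.4%, 55.4% and 60.8% in NKT2-like and 23.5%, 14.1% and 11.9% in NKT1-like cells. With all UMIs, most NKT2-like cells with an Id3 UMI thus also had an Id2 UMI in each library. At 2700 UMIs this held in C57BL/6 only, and 39.1% and 35.9% of NKT2-like cells of BM only and BM + Spl had Id3 without Id2. A gene without a UMI at this depth may still be expressed, so these shares cannot show whether the genes divide NKT2-like cells into groups. Of NKT2-like cells with an Id2 UMI, 57.8%, 57.8% and 53.8% also had Id3, against 62.5%, 61.8% and 57.8% of those without. For comparison, pDC-like cells of BM only and BM + Spl, which are plasmacytoid dendritic-like cells, had both genes in 2.86% and 0.266% of cells. Free RNA and transcription in these cells cannot be told apart. An Id3 UMI was in 17.9% and 10.1% of pDC-like cells, at 121 and 62.9 CPM, and in 11.99% and 11.2% of NKT1-like cells, at 60.8 and 59.2 CPM. The pooled Id3 CPM of NKT1-like cells was therefore not above that of pDC-like cells in either library. Their share of cells with an Id3 UMI was lower in BM only and slightly higher in BM + Spl. NKT1-like cells of BM + Spl with an iNKT Vβ segment held 78.5 CPM (62.4 to 97.6), against 62.9 CPM (54.4 to 72.3) in pDC-like cells. Median depths were 4546 and 4525 UMIs in NKT1-like and 6544.5 and 7152.5 UMIs in pDC-like cells.

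**Figure D4:**
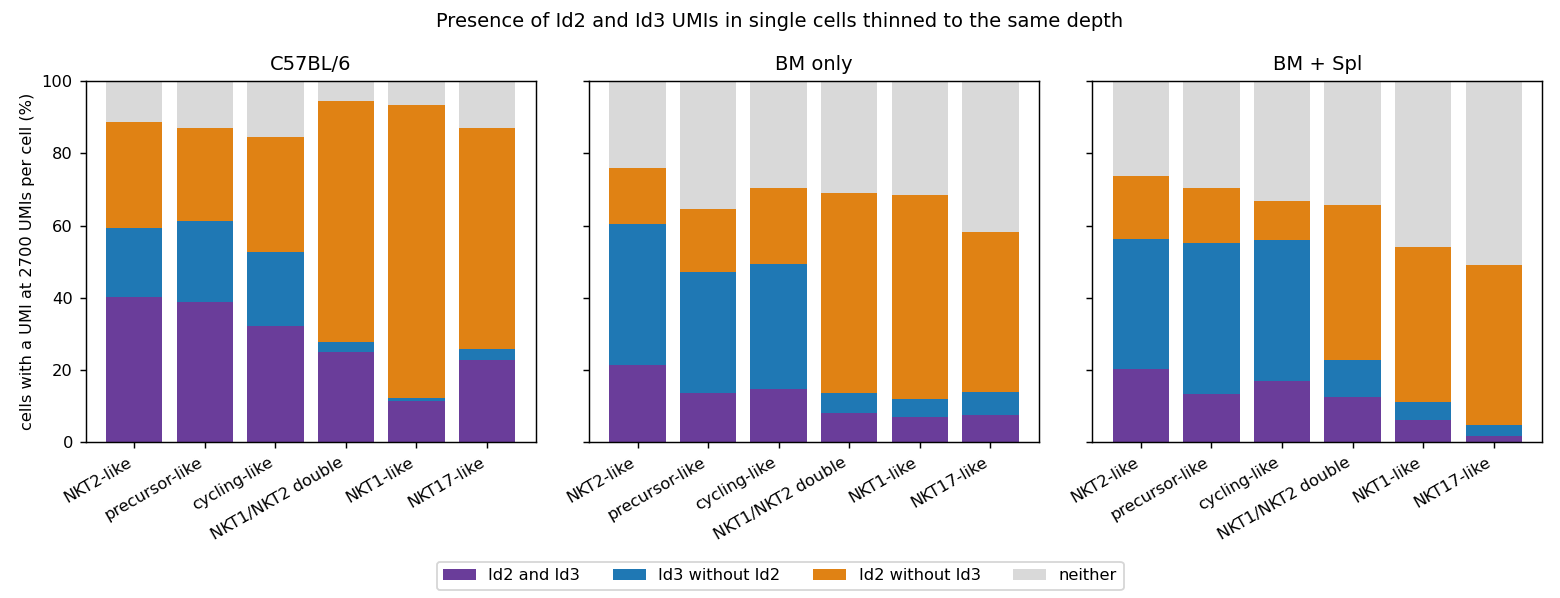
Percent of cells (y axis) with UMIs of both Id2 and Id3, of Id3 without Id2, of Id2 without Id3 or of neither, at 2700 UMIs per cell, in the 6 iNKT gates (x axis) of each library. Cells with Id2 alone make up 81.1% and 56.3% of the NKT1-like bars of C57BL/6 and BM only and 42.8% in BM + Spl, where 46.1% had neither gene. Cells with both are most common among NKT2-like cells, at 40.1%, 21.3% and 20.4%.

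Tcf3, the E2A gene, spanned less than any Id gene among gates and had its highest level in cycling cells of the BMT libraries. In cycling-like cells it was at 53.4 CPM in C57BL/6, 118 CPM in BM only and 108 CPM in BM + Spl, and in NKT2-like cells at 37.3, 76.5 and 78.1 CPM. The log2 ratio was 0.52 (0.37 to 0.67), 0.63 (0.43 to 0.83) and 0.47 (0.32 to 0.62). In BM only the interval of cycling-like cells was apart from every other gate, and in BM + Spl it overlapped that of precursor-like cells. Past 1.5-fold, BM only had 1 of 4 members, Tcf3, where 24.8% of genes were past it. C57BL/6 had 0 of 4 against 27.7%, and BM + Spl had 1 of 4, Id2 with a log2 ratio of -0.71, against 24%. Cells with S phase markers only and cells with S and G2/M markers did not differ beyond counting error, at 122 and 119 CPM in BM only and 117 and 106 CPM in BM + Spl. NKT1-like and NKT2-like cells had close Tcf3 levels, with log2 ratios of 0.21 (-0.00045 to 0.41), -0.19 (-0.38 to -0.00031) and -0.33 (-0.57 to -0.10) on the CPM scale. Per cell, the log2 ratio was -0.87, -1.02 and -1.11, so the nearly level share of RNA went with fewer Tcf3 UMIs in each NKT1-like cell.

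Tcf12, the HEB gene, set the C57BL/6 library apart. There NKT1-like cells held 117 CPM and NKT2-like cells 64.9 CPM, a log2 ratio of 0.85 (0.72 to 0.99). In BM only the levels were 53.3 and 49.9 CPM, and in BM + Spl 46.7 and 39.3 CPM. The intervals of both gates overlapped in the BMT libraries, with log2 ratios of 0.09 (-0.13 to 0.33) and 0.25 (-0.04 to 0.54). Per cell the C57BL/6 ratio turned, to -0.23 on the log2 scale, from 0.939 UMIs in NKT2-like to 0.803 UMIs in NKT1-like cells. Levels in the other gates ranged from 58.9 to 85.4 CPM in C57BL/6, from 42.9 to 73.7 CPM in BM only and from 31.9 to 49.8 CPM in BM + Spl. Apart from NKT1-like cells of C57BL/6, no gate had an interval apart from its neighbour in the order.

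NKT17-like and double-marker cells were also set against NKT2-like cells. For NKT17-like cells, Id3 had log2 ratios of -1.59, -2.64 and -3.19, and Id2 of 0.53, 0.76 and 0.04. Past 1.5-fold were 1 of 4 members in C57BL/6 against 22% of genes, 2 of 4 in BM only against 27%, and 1 of 4 in BM + Spl against 32.4%. These NKT17-like values pool cells of both kinds of Vβ segment. With an iNKT segment, Id3 was at 97.3 CPM in NKT17-like and 504 CPM in NKT2-like cells of BM only. In BM + Spl it was at 128 and 469 CPM, so the lower pooled ratio of BM + Spl did not hold for those cells. For double-marker cells, Id3 had ratios of -1.61, -2.29 and -1.04 and Id2 of 0.91, 1.15 and 0.53. Here 2 of 4 members were past the cutoff in C57BL/6 (22.4% of genes), 2 of 4 in BM only (26.8%) and 1 of 4 in BM + Spl (25.8%). Against NKT1-like cells, double-marker cells had more Id3, with log2 ratios of 1.34, 0.75 and 1.95, where 10.6%, 12.4% and 21.7% of genes lay past 1.5-fold. Precursor-like cells had 0 of 4 members past the cutoff against NKT2-like cells in each library, where 18.7%, 21.5% and 19.5% of genes were.

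The comparison of BM + Spl with BM only addresses GvHD within gates set by the same rule. The cells in the NKT1-like and NKT17-like gates were not matched, since their shares of iNKT Vβ segments differed between the libraries. That share was also lower in BM + Spl in precursor-like and double-marker cells. In NKT2-like cells the members were close. Id2 was at 197 CPM in BM only and 232 CPM in BM + Spl, a log2 ratio of 0.24 (0.12 to 0.35). Id3 was at 501 and 473 CPM, Tcf3 at 76.5 and 78.1 CPM, and Tcf12 at 49.9 and 39.3 CPM. None of the 4 was past 1.5-fold, where 4.36% of genes were. Cycling-like cells also had 0 of 4, against 6.88% of genes, with log2 ratios from -0.30 for Id2 to 0.20 for Id3.

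In NKT1-like cells, Id2 was lower in BM + Spl, at 280.1 CPM against 406 CPM in BM only, a log2 ratio of -0.53 (-0.64 to -0.43). Marker numbers differed between the libraries in NKT1-like and double-marker cells, which were counted together by marker number. In BM + Spl, 197 of these cells had 3 NKT1 markers, 293 had 4 or 5, 138 had 6 or 7 and 41 had 8 or more. In BM only the numbers were 104, 433, 797 and 919. With 8 or more markers, Id2 was at 421 CPM (337 to 520) in BM + Spl and 416 CPM (397 to 435.5) in BM only. That BM + Spl level rests on 86 UMIs in 41 cells, and the difference was not seen there. With 6 or 7 markers, Id2 was at 349 CPM (308 to 393) in BM + Spl and 425 CPM (405 to 446) in BM only. With 4 or 5 markers it was at 257 CPM (233 to 283) and 396 CPM (370 to 422). Id3, at 59.2 and 60.8 CPM, Tcf3, at 62.1 and 67.0 CPM, and Tcf12, at 46.7 and 53.3 CPM, had intervals that overlapped between the libraries. Here too 0 of 4 members were past 1.5-fold, where 22.5% of genes were. The Id2 difference was similar in cells with and without a typical iNKT Vβ segment. With such a segment, Id2 was at 409 CPM in 1579 cells of BM only and 265 CPM in 186 cells of BM + Spl. With another segment, it was at 404 CPM in 127 cells and 271 CPM in 308 cells. The log2 ratios were -0.63 (-0.81 to -0.45) and -0.57 (-0.80 to -0.34), so that Id2 was past 1.5-fold among cells with an iNKT segment, as it was with graph clusters in place of gates (-0.80). Id3 in NKT1-like cells with an iNKT Vβ segment was higher in BM + Spl, at 78.5 against 56.7 CPM, a log2 ratio of 0.47 (0.11 to 0.81). Levels by marker number were not split by Vβ segment, and the part of marker number in this Id3 difference was not tested.

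In NKT17-like cells, Id3 was at 80.1 CPM in BM only and 51.9 CPM in BM + Spl, a log2 ratio of -0.63 (-1.05 to -0.22). It was the 1 member of 4 past 1.5-fold, where 16.4% of genes were, and another random draw of UMIs for gating took it to -0.42, within the cutoff. Gating at 1500 UMIs per cell gave -1.72 (-2.47 to -1.04). This direction turned among cells with an iNKT Vβ segment, with 97.3 CPM in BM only and 128 CPM in BM + Spl, a log2 ratio of 0.39 (-0.09 to 0.86). Cells with another Vβ segment had little Id3, at 30.4 and 6.22 CPM from 13 and 4 UMIs. Among them, too, Id3 was lower in BM + Spl, with a log2 ratio of -2.29 (-4.37 to -0.60). Within BM + Spl, Id3 in NKT17-like cells with another segment was lower than in those with an iNKT segment by a log2 ratio of -4.36 (-6.28 to -2.92). Zbtb16, the PLZF gene, was at 12.4 and 110 CPM in the same cells. Id2 did not follow this split, at 233 and 253 CPM. The part of the share of iNKT Vβ segments in the pooled Id3 difference between BM only and BM + Spl was not tested.

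**Figure D5:**
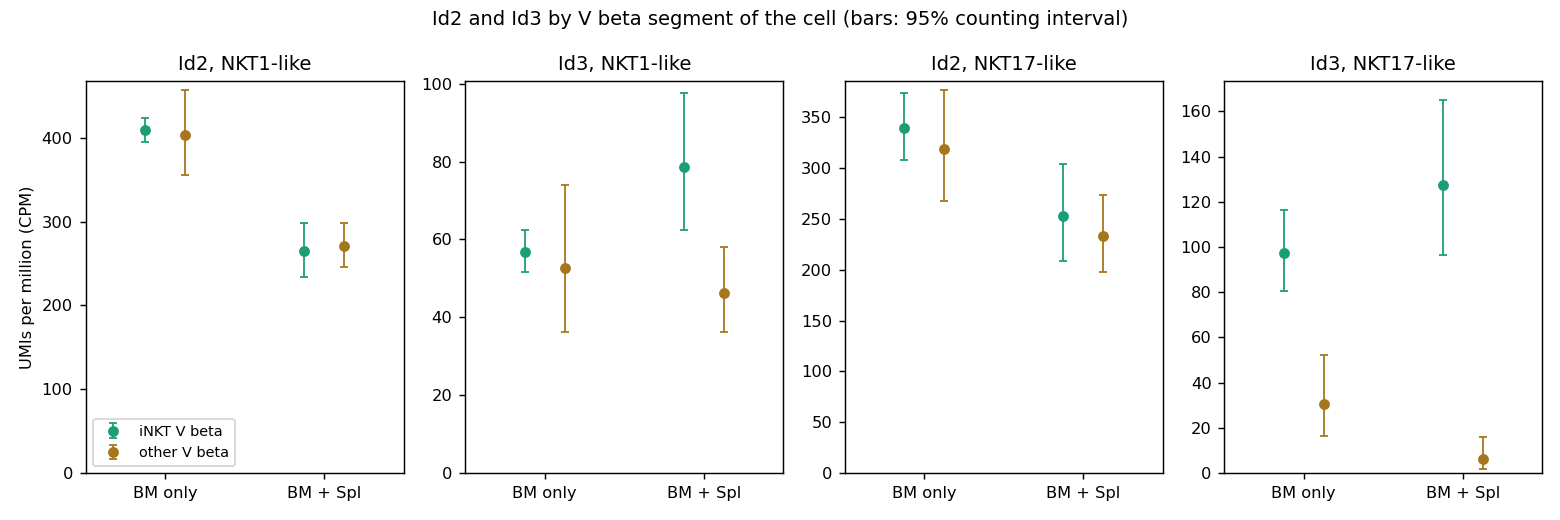
Levels in UMIs per 1000000 (CPM) (y axis) of Id2 and Id3 in NKT1-like and NKT17-like cells of BM only and BM + Spl (x axis), with colours for cells with a Vβ segment typical of iNKT cells or another one, with bars for the 95% counting interval. In NKT17-like cells Id3 lies at 97.3 and 128 CPM with an iNKT segment and at 30.4 and 6.22 CPM with another, while Id2 lies between 233 and 340 CPM in all 4.

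Among double-marker cells, Id3 was at 102 CPM (86.2 to 121) in BM only and 229 CPM (194 to 269) in BM + Spl, and the intervals did not overlap. The log2 ratio was 1.16 (0.82 to 1.5), and Id3 was 1 of 4 members past 1.5-fold, where 15.5% of genes were. In cells with an iNKT Vβ segment it was 1.44 (1.02 to 1.87), over 189 and 67 cells. The few cells with another segment, 15 and 13, had the opposite direction, at 181 and 38.3 CPM, a log2 ratio of -2.24 (-4.67 to -0.42). When cells were gated at 1500 UMIs the ratio was 0.35 and no longer past the cutoff, while Id2 was past it with -0.71. Double-marker cells alone were not split by NKT1 marker number. In these and NKT1-like cells counted together, Id3 was at 149 CPM in BM only and 126 CPM in BM + Spl with 3 markers. With 4 or 5 markers it was at 70.8 and 79.0 CPM, and with 6 or 7 at 60.5 and 67.1 CPM. The levels with 8 or more were 55.6 and 29.4 CPM. Zbtb16 was at 215 and 330 CPM in double-marker cells with an iNKT Vβ segment. The part of marker numbers in the Id3 difference was not tested. Precursor-like cells, 51 and 105 in number, had 1 of 4 members past the cutoff, against 11.8% of genes. That member was Tcf12, at 73.7 and 45.3 CPM, and the interval of its log2 ratio, -0.70 (-1.45 to 0.06), included 0.

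Set side by side with C57BL/6, BM only had less Id2 in all 6 gates, with log2 ratios from -1.77 to -1.39. Tcf3 in NKT2-like cells was at 37.3 CPM in C57BL/6 and 76.5 CPM in BM only, a log2 ratio of 1.04. Id3 in the same cells had a ratio of -0.022. In NKT2-like cells 2 of 4 members were past 1.5-fold, where 40.4% of all genes were.

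Other cells carried in the sort gave a frame for the levels. Treg-like cells of BM only and BM + Spl held Id2 at 160 and 109 CPM and Id3 at 55.5 and 70.1 CPM. Tcf3 was at 131 and 114 CPM in B-like cells, in which E2A is a determinant of the lineage. Tcf12 was at 142 and 139 CPM in pDC-like cells, above every iNKT gate of those libraries. Id2 was low in pDC-like cells, at 36.0 and 35.6 CPM, and Tcf4, which specifies plasmacytoid dendritic cells, was at 805 and 745 CPM there.

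Of the other family genes, Tcf4 in iNKT gates was between 1.33 and 11.1 CPM in C57BL/6 and BM + Spl, and up to 41.8 CPM in BM only, where the precursor-like gate held that level. Ccr9 was a marker for both the precursor-like and the pDC-like gate, and whether plasmacytoid dendritic cells entered the precursor-like gate was not tested. Id1 was at 2.23 CPM or lower in each gate. Id4 was at 0 in the 6 gates of all libraries, which allows a level of up to 0.152 to 7.37 CPM by the size of the gate (3 counts).

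Partners of E proteins were examined as a list of 14 genes. Between NKT1-like and NKT2-like cells, 7 could be tested in C57BL/6, with 1 higher and 2 lower past 1.5-fold. In BM only, 5 were tested with 2 higher and 0 lower, and in BM + Spl 5 with 1 higher and 0 lower. The list's median log2 ratio was 0.27, 0.17 and 0.36, beside medians of 0.028, -0.031 and 0.029 over all genes. Of all genes, 14.8%, 17% and 18.3% were higher and 13.5%, 14.1% and 13% lower. Bhlhe40, a helix-loop-helix repressor of activated T cells, was the gene higher in all 3 libraries. NKT1-like cells held it at 39.8 CPM in C57BL/6, 259 CPM in BM only and 722 CPM in BM + Spl, and NKT2-like cells at 2.43, 12.5 and 25.6 CPM. Ep300, a coactivator of E proteins, had log2 ratios of 0.46, 0.60 and 0.36.

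Genes that E proteins are known to promote in T lineage cells formed a list of 15. Of 9 tested in C57BL/6, 2 were higher and 4 lower in NKT1-like cells, of 9 in BM only 5 were higher and 2 lower, and of 9 in BM + Spl 4 were higher and 0 lower. Among all genes, 14.8%, 17% and 18.3% were higher and 13.5%, 14.1% and 13% lower in these comparisons. The medians of the list were -0.17, 0.79 and 0.26, beside 0.028, -0.031 and 0.029 over all genes. The list thus did not move one way across the libraries. Tcf7, which encodes TCF-1, had log2 ratios of -1.90, -1.31 and -0.55, with 240.2, 358 and 305 CPM in NKT2-like cells. Cd4 had ratios of -1.69 and -1.70 in C57BL/6 and BM only and 1.38 in BM + Spl, the library in which NKT1-like cells carried few iNKT Vβ segments. Socs3, a feedback inhibitor of cytokine signaling, had ratios of 0.63, 3.11 and 3.62. Notch1 had 0.61, 0.79 and 0.67, and Il7r, the IL-7 receptor gene, had 0.56, 0.91 and 0.23.

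Between BM + Spl and BM only, 1 of 9 tested genes of this list was past 1.5-fold in NKT2-like cells, and it was lower. Of all genes, 1.73% were higher and 2.63% lower there. In NKT1-like cells 2 of 9 were higher and 1 lower, beside 12.2% and 10.3% of all genes. Those were Cd4, with a log2 ratio of 3.15, Gfi1, a transcriptional repressor, with 1.32, and Il7r with -0.76. The median of the list was -0.090 in NKT2-like and -0.019 in NKT1-like cells, beside -0.0097 and 0.044 over all genes. Of the partners, 1 was higher in each gate, Bhlhe40, with 1.03 and 1.48.

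The Egr genes, which act upstream of Id3, had different directions in the libraries. In C57BL/6 all 3 were over 1.5-fold lower in NKT1-like than in NKT2-like cells, as were 13.5% of genes, with log2 ratios of -0.80 for Egr1, -1.0 for Egr2 and -0.77 for Egr3. In BM only, Egr1 was higher, with 1.04, and Egr2 lower, with -1.24. In BM + Spl, Egr1 was higher, with 0.93, and Egr2 had 0.28 (-0.12 to 0.68). Egr2 in the pooled NKT1-like gate was at 7.15 CPM in BM only and 25.0 CPM in BM + Spl, a log2 ratio of 1.80. Id3 was at 60.8 and 59.2 CPM in the same gate, but at 56.7 and 78.5 CPM in its cells with an iNKT Vβ segment. Egr2 was not split by Vβ segment, so its difference cannot be told apart from the different make-up of the gate.

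The genes with the pattern most like each member were sought among 8523 genes over 18 points, the 6 gates of 3 libraries. Log2(CPM + 1) was first centred on the mean of each library. All cell type marker genes, those of NKT1 and NKT2 included, and mitochondrially encoded genes were left out, so the rankings do not cover them. The points share libraries and depths, and the correlations are descriptions. Treml2 was most like Id3, with a Pearson r of 0.99, followed by Adk (0.98), Tomm20 (0.97), Akap6 (0.96) and Brk1 (0.96). Ostf1 (-0.98), Zbtb7a (-0.97), Arf6 (-0.97), Sorl1 (-0.96) and Ifngr1 (-0.96) ran most against it. For Id2 the most alike were Nlrc3 (0.96), Thada (0.96), Gbp9 (0.96), Cd3e (0.96) and Rgs2 (0.95), and Ndufc2 (-0.95), Mif (-0.94), Fam162a (-0.94), Mrps11 (-0.94) and Psma7 (-0.94) were the opposite. Tcf3 was most like Tfam (0.89), Inip (0.89), Cstf2 (0.89), Pds5b (0.88) and Nono (0.88). Tcf12 had the weakest matches, Abr (0.83), Prkcb (0.83), Pip4k2c (0.81), Alyref2 (0.79) and Safb2 (0.77). Between members, r was -0.76 for Id2 and Id3, -0.57 for Id2 and Tcf3, and 0.53 for Id3 and Tcf3.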

How the data were processed

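Raw UMI counts per gene and cell were deposited by the authors for 3 libraries, made with Cell Ranger on mm10 (versions 3.0.2 for C57BL/6 and 7.0.0 for both BMT libraries per the file headers). Cells kept by the filter (over 200 and under 6000 genes, under 10% mitochondrial UMIs) were thinned to 2700 UMIs (seed 11) and gated by detected markers. At least 3 of 14 NKT1 markers and at most 1 of 7 NKT2 markers made an NKT1-like cell, and at least 2 NKT2 and at most 1 NKT1 markers an NKT2-like cell. Gate thresholds were set after the marker counts per cell had been seen and before the members' levels were read. Raw UMIs were summed per gate and scaled to UMIs per 1000000 (CPM) over 30406 genes, with exact Poisson intervals, exact conditional binomial intervals of ratios and Clopper-Pearson intervals of shares. Genes past 1.5-fold were counted among those with at least 50 UMIs over both gates together, with a gate at 0 set to 3 UMIs. Total UMIs were 60600408, 35041153 and 43383960 in C57BL/6, BM only and BM + Spl. PCR duplicates were collapsed by UMI, and intervals cover counting error only.

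Scrublet's automatic threshold marked 7, 2 and 8 cells, too few to have worked, so no cell was removed as a doublet in the levels given, and the 6% with the highest scores were left out as an alternative. The genes named are the members, the other family genes, the partner, target and Egr lists and the 5 genes most like each member. The members and lists were chosen with earlier results of these data known. The ratio counts were tested on simulated data, where 95.5%, 95.9% and 95.4% of intervals covered the true ratio between NKT1-like and NKT2-like cells over 10039, 9570 and 9293 genes. The simulated counts followed the Poisson model on which the intervals rest, so this coverage checks the computation only. Spread between cells beyond that model was not simulated. Python 3.11.15, numpy 2.4.6, scipy 1.17.1, pandas 2.3.3, scanpy 1.11.5 and matplotlib 3.10.9 were used. The submitters' processing notes name Seurat 4.0.2. Positions came from the GENCODE annotation of GRCm38/mm10.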

Additional observations from a re-analysis of the deposited data

Results flagged for a closer look

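Several members moved in opposite directions in different gates or libraries. Each difference below has 1 library per condition, so the difference between gates or libraries was not tested. Between cycling-like and NKT2-like cells, the log2 ratio of Id3 was -0.22 in C57BL/6 and -0.16 in BM only but 0.12 in BM + Spl. That of Tcf12 was -0.14 in C57BL/6 and 0.25 in BM + Spl. Between BM + Spl and BM only, Id2 was higher in NKT2-like cells, with a log2 ratio of 0.24, and lower in double-marker cells with -0.39, in NKT1-like cells with -0.53, in NKT17-like cells with -0.48 and in cycling-like cells with -0.30. In the same comparison, Id3 had a ratio of -0.083 in NKT2-like and -0.63 in NKT17-like cells, and of 1.16 in double-marker, 0.37 in precursor-like and 0.20 in cycling-like cells. The precursor-like value was the least stable in sign of these 3, from -0.15 to 0.65, and kept its sign in 7 of 9 alternatives.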

How the results depend on the processing

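Among values that answer a comparison, 162 recomputed under an alternative stayed within the limits set for them, 43 moved and 1 reversed. Among the other values, 220 stayed, 24 moved and 4 reversed. With UMIs per cell in place of CPM, added with leaving out shared barcodes and another random draw after the data had been seen, the NKT1-like over NKT2-like log2 ratio in C57BL/6 was -0.022 for Id2, -4.03 for Id3, -0.87 for Tcf3 and -0.23 for Tcf12. It was 0.22, -3.87 and -0.73 for Id2, Id3 and Tcf12 in BM only, and -0.50 and -3.77 for Id2 and Id3 in BM + Spl, where 2 members were past 1.5-fold. On that scale BM + Spl over BM only was 0.017 for Id3 in NKT2-like and -0.39 for Id2 in NKT1-like cells. Median UMIs per cell differed between the gates, so this scale counts the lower total of NKT1-like cells.

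Gating on 1500 UMIs gave Id2 ratios of 0.98 in C57BL/6 and 0.49 in BM + Spl, -0.17 for Id3 between BM + Spl and BM only in NKT2-like cells, and 0 precursor-like members past the cutoff. Gating on all UMIs gave Id3 ratios of -3.42, -3.35 and -3.24 in C57BL/6, BM only and BM + Spl, -0.23 for Id3 in NKT2-like cells between the BMT libraries, and 2 double-marker and 0 precursor-like members past the cutoff. Graph clusters gave Id2 ratios of 0.89 in C57BL/6 and 0.024 in BM + Spl, Id3 ratios of -2.68, -3.28 and -3.35, and -0.80 for Id2 in NKT1-like cells between the BMT libraries, where 1 member was then past the cutoff. Clusters held no double-marker or precursor-like class. A filter of over 500 genes and under 5% mitochondrial UMIs gave 0.96 for Id2 and -4.30 for Id3 in C57BL/6. The median passing cell of that library had 6.48% mitochondrial UMIs, above this limit. Leaving out the highest doublet scores gave -3.24 for Id3 in BM only.

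With iNKT Vβ cells only, the Id3 ratio in BM + Spl was -2.58, and between the BMT libraries it was 0.47 in NKT1-like and, reversed, 0.39 in NKT17-like cells. Members past the cutoff were then 1 in NKT1-like, 0 in NKT17-like and 0 in precursor-like cells. Another draw gave -0.27 for Id3 in NKT2-like cells, 0 members in NKT17-like and 2 in precursor-like cells. A minimum of 200 UMIs gave 0 in precursor-like cells, where it left out Tcf12, with 30 UMIs in BM only and 34 in BM + Spl. With all UMIs of each cell, both Id genes were found in 81.4% and 23.5% of NKT2-like and NKT1-like cells in C57BL/6, 55.4% and 14.1% in BM only, and 60.8% and 11.9% in BM + Spl. Causes were not tested. No paired analysis was possible because each condition has 1 library.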
